A study of Mus musculus with 6 samples.

Results

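Ion channel genes were examined in mouse airway smooth muscle in culture, where transgenic cells overexpress the beta2-adrenergic receptor. The genes were taken by symbol: every probe whose 1 platform gene symbol begins as a potassium (Kcn), calcium (Cacn), sodium (Scn) or chloride (Clcn, Clic) channel, a TRP channel of the Trpa, Trpc, Trpm or Trpv families, a calcium release channel of the store (Ryr, Itpr), a pacemaker channel (Hcn), a ligand-gated channel (P2rx, Chrn, Gabr, Gria, Grik, Grin) or an aquaporin (Aqp). This gave 40 genes on 51 probes, all 40 with values on 6 arrays, among 6807 rows tested, of which 5644 carry 1 gene symbol. The rule itself uses symbols and no measured value. No Hcn gene, no pore-forming sodium channel gene and neither Kcnma1 nor Cacna1c was among the 40. Of the channels listed as known from airway smooth muscle, 3 were measured: Kcnn4, Clcn3 and Aqp1.

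The study holds 6 samples, each a two-colour array where RNA of transgenic cells, from mice that overexpress the receptor, competed with RNA of nontransgenic cells. Both kinds of cell were grown from explants of the trachea in medium with 20% serum and harvested between passages 8 and 10, and over 90% of such cells stained for smooth muscle actin, per the labels' protocols. Strain, age, the transgene's promoter and whether RNA of several animals was pooled were not given in the sources used here. On 4 arrays (1A, 1B, 2A, 2B) the transgenic RNA was labelled with Cy5, and the dyes were swapped on 1C and 2C. Arrays with the number 1 in their title are called set 1 here and those with the number 2 set 2; the labels do not explain the numbers or say that arrays came from separate cultures, so p-values reflect how far these arrays differ, and that spread may be technical.

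Values are log2 ratios, so 1 unit is a doubling, and the direction is likely transgenic over nontransgenic because that is the test condition and held the first channel on 4 arrays; if it is the reverse, each sign below turns. The swapped arrays 1C and 2C were taken as already turned to that direction, which the labels do not state. Between 8495 and 8555 probes had a value on each array. Array 1C scattered most, with a standard deviation of 1.04 over its probes against 0.467 to 0.608 on the other 5. A ratio gives no level, so whether a channel is abundant in these cells, and whether the cells hold their defining smooth muscle markers, could not be read from it. Of 12 smooth muscle markers 4 were measured: Cnn1, calponin, rose (0.59 ± 0.105), and Cald1, Smtn and Tpm1 ran from -0.16 to -0.05. Fewer cells of a type and less RNA per cell cannot be told apart in such a ratio.

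Ion channels are membrane proteins that let selected ions pass, and in smooth muscle they set the membrane potential and the calcium that drives contraction. The beta2-adrenergic receptor raises cyclic AMP, and its relaxing action is known to involve protein kinase A, potassium channels and calcium stores. Pore-forming subunits carry the ions, while accessory subunits bring them to the membrane or alter their gating. Cyclic AMP also acts on genes through factors that bind a DNA element, the cyclic AMP response element.

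Sequence upstream of 4 of these genes is shown: the gene that holds a full cyclic AMP response element, and the genes with a window whose ratios had the lowest p. RefSeq promoter windows on GRCm38.p6 matched 32 of the 40 genes, and the 250 bases before each start were searched on both strands for TGACGTCA (the element), TGACG (its core), TGANTCA (an AP-1 site) and CANNTG (an E-box). Cacng1, which had limma's lowest unadjusted p for the transgene among the 40, had no window and was not searched. Capitals mark every match, and a core inside the element overlaps it. Clcn4, a chloride and proton exchanger of endosomes, was the 1 gene with the full element; it lies in the first of its windows, chr7:7299558-7299807, minus strand. Aqp1 (chr6:55336049-55336298, plus strand), Clic5 (chr17:44188322-44188571, plus strand) and Clic1 (chr17:35049993-35050242, plus strand) had the lowest unadjusted p for the transgene among the genes with a window.
Clcn4: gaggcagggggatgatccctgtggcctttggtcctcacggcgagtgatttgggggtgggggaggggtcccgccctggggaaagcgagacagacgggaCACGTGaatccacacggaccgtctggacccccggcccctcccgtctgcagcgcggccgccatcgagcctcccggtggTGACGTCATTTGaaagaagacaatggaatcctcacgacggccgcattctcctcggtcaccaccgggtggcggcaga
Aqp1: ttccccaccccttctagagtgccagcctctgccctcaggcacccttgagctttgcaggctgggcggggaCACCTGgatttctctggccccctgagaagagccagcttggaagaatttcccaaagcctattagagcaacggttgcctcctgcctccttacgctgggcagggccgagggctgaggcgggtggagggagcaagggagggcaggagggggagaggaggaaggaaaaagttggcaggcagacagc
Clic5: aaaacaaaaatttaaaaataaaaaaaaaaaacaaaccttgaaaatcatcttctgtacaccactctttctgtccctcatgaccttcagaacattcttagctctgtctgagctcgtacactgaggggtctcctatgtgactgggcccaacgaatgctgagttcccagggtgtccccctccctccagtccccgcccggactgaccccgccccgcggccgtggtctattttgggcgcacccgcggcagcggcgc
Clic1: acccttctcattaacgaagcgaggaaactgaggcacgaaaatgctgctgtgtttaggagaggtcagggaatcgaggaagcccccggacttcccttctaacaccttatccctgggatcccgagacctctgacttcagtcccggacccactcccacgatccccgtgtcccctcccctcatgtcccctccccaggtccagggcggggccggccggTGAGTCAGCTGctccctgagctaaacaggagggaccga

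The full element was found in 1 of 42 windows of the channel genes (2.38%) and in 1.55% of all 32851 windows of that length, and its core in 10 of 42 (23.8%) against 17.8%. The AP-1 letters stood in 4.76% of the channel windows against 6.75% of all, and E-box letters in 71.4% against 66.2%. In Clcn4 the element ends 69 bases before the start, and in Clic1 the AP-1 letters end 32 bases before it and overlap an E-box. The 10 genes with a core match had fitted ratios from -0.39 to 0.47 with a median of -0.06, and 4 of them were positive; the 22 genes with windows but no core match ran from -0.43 to 0.91 with a median of 0.06. The 2 ranges overlap over most of their length. A match of letters is a description of the window and not a bound site.

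Among the 40 ion channel genes, Cacng1 alone passed the threshold for a change in the transgenic cells. It encodes the gamma subunit of the skeletal muscle L-type calcium channel, and its ratio rose by 0.54 on the log2 scale, which is 1.45-fold. No channel gene fell past the threshold. The largest fitted ratios belonged to Clic5, Trpm4, Gabrb1 and Grin2d, at 0.57 to 0.91, and the lowest to Clic3, Aqp1, Clcn7 and Clcn2, at -0.43 to -0.36, but none of these 8 passed the test. The fit was limma with a transgenic and a dye coefficient, and the threshold was a Benjamini-Hochberg adjusted p under 0.05 over all 6807 rows.

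The share of channel genes that passed was 1 of 40 (2.5%) against 484 of 6807 rows, 7.11%; higher calls made up 4.03% of all rows and lower calls 3.09%. At an unadjusted p under 0.05 the channel genes numbered 10 of 40 (25%), close to 27.7% of all rows. The median absolute ratio of the channel genes was 0.151 against 0.173 over all rows, and the median standard error was 0.0942 against 0.105. There were 21 positive and 19 negative ratios, the median was 0.034 against 0.002 for all rows, and 5 of 40 (12.5%) lay beyond 0.5 in either direction against 12.2% of all rows.

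**Figure D1:**
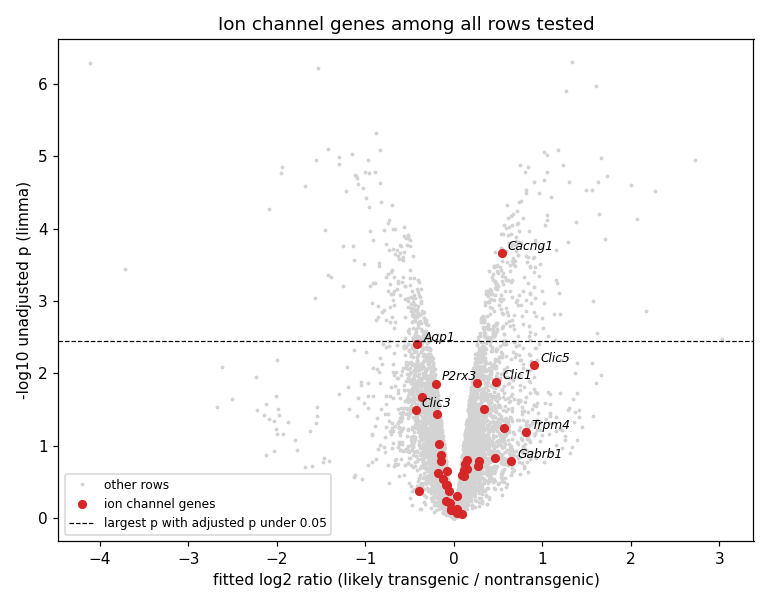
Fitted log2 ratio (x axis, likely transgenic over nontransgenic) against -log10 of limma's unadjusted p (y axis) for the 40 ion channel genes (red) and the other rows tested (grey); the dashed line is the largest p that passed adjustment. Cacng1 is the 1 red point above the line, and Aqp1 lies just below it.

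Sign agreement over the arrays was also near the background. Clic1, Clic5, Cacng1, Trpv2 and Grina were positive on all 6 arrays, which is 5 of 40 (12.5%) against 11.2% of the 6756 rows with 6 values. Aqp1 and P2rx3 were negative on all 6, which is 5% against 8.51%. Signs are those of the mean over a gene's probes.

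**Figure D2:**
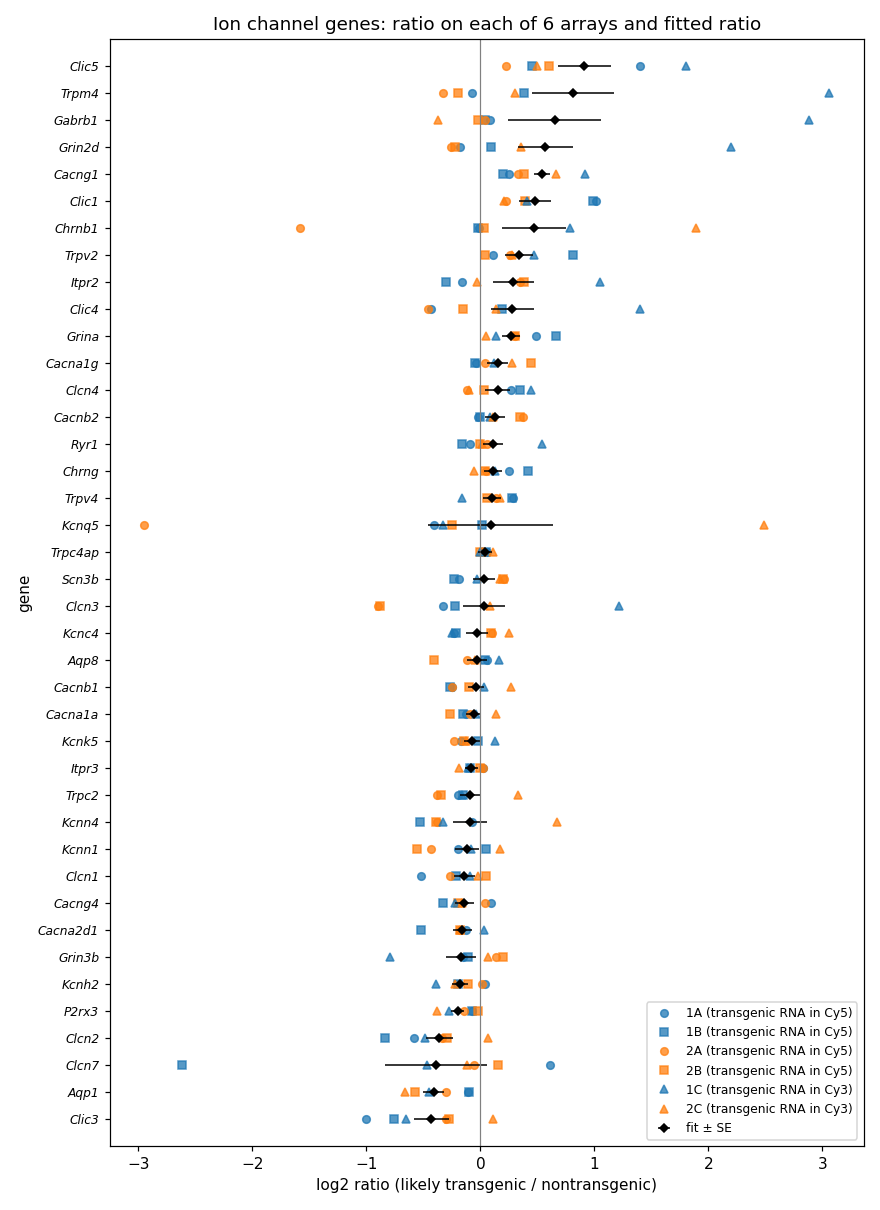
Log2 ratio of each ion channel gene (rows) on each of the 6 arrays (blue, set 1; orange, set 2; triangles, transgenic RNA in Cy3), with the fitted ratio and its standard error in black. Array 1C holds the far right points of Trpm4, Gabrb1 and Grin2d, while Cacng1 has all 6 points right of 0.

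Calcium channel genes comprised 2 pores and 5 accessory subunits. Cacng1 had ratios of 0.25 on 1A, 0.20 on 1B, 0.33 on 2A, 0.38 on 2B, 0.92 on 1C and 0.66 on 2C. All 6 were above 0, and both swapped arrays were higher than all 4 others. The fitted value was 0.54 ± 0.0691 (SE, n = 6; 95% interval 0.37 to 0.71, adjusted p = 0.0117). The set means were 0.46 and 0.45, so the ratio did not differ between sets by more than its error (set 2 minus set 1, -0.01 ± 0.116). By orientation they were 0.29 ± 0.08 (SD, n = 4) with transgenic RNA in Cy5 and 0.79 on the 2 swapped arrays, and the dye coefficient was -0.25 ± 0.0691 (adjusted p = 0.192).

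The call of Cacng1 ended without array 2A (0.53, adjusted p = 0.0514) and without a dye term (0.46, adjusted p = 0.0565). If the swapped columns were not yet turned, the fitted value would be -0.25 with no call. Its 1 probe was not checked by another. Of 14 markers of skeletal and cardiac muscle, 3 were measured: Mb, myoglobin, rose (0.29 ± 0.0616, adjusted p = 0.046), and Myh3, an embryonic myosin, and Tnnt2, cardiac troponin T, stood at 0.07 ± 0.0787 and 0.00 ± 0.0582. The part of such cells in the result was not tested.

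The other accessory calcium channel subunits lay near 0. Cacnb2 and Cacnb1, which carry the pore to the membrane, were at 0.13 ± 0.0863 and -0.04 ± 0.0681. The 2 probes of Cacnb1 differed, with 0.09 ± 0.104 and -0.16 ± 0.0995. Cacna2d1, the extracellular subunit that binds gabapentin, was at -0.16 ± 0.083 and negative on 5 arrays. Cacng4, a relative of Cacng1 known mainly as a partner of glutamate receptors, was at -0.14 ± 0.0832. Of the pores, the T-type channel Cacna1g stood at 0.15 ± 0.0931 and the P/Q-type channel Cacna1a at -0.06 ± 0.0649. Scn3b, the 1 sodium channel subunit measured, stood at 0.03 ± 0.0952, negative on the 3 arrays of set 1 and positive on the 3 of set 2.

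Among other genes that serve skeletal muscle excitation, none passed. Chrnb1 and Chrng, subunits of the muscle acetylcholine receptor, were at 0.47 ± 0.283 and 0.11 ± 0.0822. Chrnb1 was at 0.75 without 1C and 0.19 without 2C. Such a fit keeps 1 swapped array, which the dye coefficient fits exactly, so the scatter of that array adds nothing to the error. Sizes alone are therefore given for fits without 1C or 2C. Ryr1, the calcium release channel of that tissue, was at 0.11 ± 0.0913, with -0.13 ± 0.071 at one probe and 0.36 ± 0.138 at the other. Clcn1, its chloride channel, was at -0.14 ± 0.091. For Chrng, 1 of 2 probes had no value on any array.

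Chloride intracellular channel genes (Clic), whose products are soluble proteins that can enter membranes, went to both ends of the order. Clic5 had the highest fitted ratio of the 40, with 1.40 on 1A, 0.45 on 1B, 0.22 on 2A, 0.60 on 2B, 1.8 on 1C and 0.50 on 2C. Every array was positive, but 1A and 1C lay far above the rest, and the fitted 0.91 ± 0.232 (1.88-fold, 95% interval 0.34 to 1.48) did not pass (adjusted p = 0.0742). Without array 1C it was 0.58, and without 2C it was 1.24.

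Clic1 was also positive throughout, at 1.01 on 1A, 0.99 on 1B, 0.22 on 2A, 0.39 on 2B, 0.41 on 1C and 0.21 on 2C. Its 2 highest arrays both belong to set 1. The fit gave 0.48 ± 0.138 (1.40-fold, adjusted p = 0.0937). Clic3 opposed both, with -1.0 on 1A, -0.76 on 1B, -0.30 on 2A, -0.28 on 2B, -0.65 on 1C and 0.11 on 2C. It was the lowest of the 40 genes at -0.43 ± 0.154 (adjusted p = 0.144), and the 3 arrays of set 1 were all lower than the 3 of set 2. Without 1C it was -0.24, and without 2C -0.62. Clic4 was at 0.28 ± 0.191, and its 3 probes gave 0.17 ± 0.109, -0.11 ± 0.117 and 0.78 ± 0.461; the last rested on a value of 3.83 on array 1C.

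Genes of the Clcn family encode plasma membrane chloride channels (Clcn1, Clcn2) and chloride and proton exchangers of endosomes and lysosomes (Clcn3, Clcn4, Clcn7), and none of the 5 passed. Clcn2 had -0.58 on 1A, -0.84 on 1B, -0.34 on 2A, -0.29 on 2B, -0.49 on 1C and 0.07 on 2C. It was negative on 5 of 6 arrays, and the fit gave -0.36 ± 0.118 (1.29-fold lower, adjusted p = 0.119). Without 1C it was -0.22, and without 2C it was -0.50. Clcn3 was split by orientation, with -0.33 on 1A, -0.22 on 1B, -0.90 on 2A and -0.88 on 2B against 1.22 on 1C and 0.08 on 2C. The orientations did not overlap, and the fitted mean of 0.03 ± 0.187 stood for neither. Clcn4, the gene with the full response element, was at 0.15 ± 0.109.

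The low value of Clcn7 came from averaging probes with different missing values. One probe had values on 1A (-2.02) and 1B (-4.87) only. The other gave 3.24 on 1A and, in the order 1B, 2A, 2B, 1C and 2C, -0.37, -0.06, 0.15, -0.47 and -0.12. The mean of both was -0.39 ± 0.449, while the complete probe alone gave 0.22 ± 0.518.

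Potassium channel genes, whose products return the membrane to its resting potential, gave 5 negative ratios of 6, all small. Kcnn4, the intermediate-conductance calcium-activated channel, had -0.07 on 1A, -0.53 on 1B, -0.38 on 2A, -0.39 on 2B, -0.33 on 1C and 0.67 on 2C. Array 2C alone was positive. The fitted -0.09 ± 0.149 had a 95% interval from -0.45 to 0.28. Without 2C the value was -0.34 and without 1C it was 0.16. Kcnh2, the channel of the rapid delayed rectifier current, was at -0.18 ± 0.0689 (adjusted p = 0.153, negative on 4 of 6 arrays).

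The remaining potassium channels did not pass either. Kcnn1, a small-conductance calcium-activated channel, was at -0.12 ± 0.104, Kcnk5, a two-pore background channel, at -0.07 ± 0.0699, and Kcnc4, a fast voltage-gated channel, at -0.03 ± 0.0994. Kcnq5, a channel of the M-current, was at 0.09 ± 0.55, the widest error of the 40. Its ratios were -0.41 on 1A, 0.01 on 1B, -2.95 on 2A, -0.25 on 2B, -0.33 on 1C and 2.49 on 2C. The extremes were thus of opposite sign on 2 arrays of the same set that differ in orientation.

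TRP channels are cation channels that respond to stretch, temperature or lipid signals, and the 4 measured did not pass. Trpm4, a cation channel opened by calcium, had -0.07 on 1A, 0.38 on 1B, -0.33 on 2A, -0.20 on 2B, 3.06 on 1C and 0.30 on 2C. Array 1C stood alone: the fitted 0.81 ± 0.36 (1.76-fold, adjusted p = 0.205) became 0.12 without it and 1.5 without 2C. Trpv2, a stretch-responsive channel, was positive on every array, from 0.04 to 0.81 with a median of 0.27, and was fitted at 0.34 ± 0.121 (adjusted p = 0.141). Trpv4, an osmosensitive channel, was at 0.10 ± 0.0774, and Trpc2, known from pheromone sensing, at -0.09 ± 0.0895. Trpc4ap, a partner of TRPC4 and no channel subunit itself, had the narrowest range of the 40, from 0.00 to 0.11.

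Store release channels pass calcium from the reticulum to the cytosol. The inositol trisphosphate receptors Itpr2 and Itpr3 were at 0.29 ± 0.18 and -0.08 ± 0.059 (adjusted p = 0.338 and 0.404). Both probes of Itpr3 lay close, at -0.09 ± 0.0585 and -0.07 ± 0.0712, and the 95% interval of -0.22 to 0.06 bounds a change of this gene more tightly than that of Itpr2, which runs from -0.15 to 0.73.

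Ligand-gated channel genes gave large ratios on single arrays and no call. Gabrb1, a subunit of the GABA-A receptor, had 0.08 on 1A, 0.04 on 1B, 0.04 on 2A, -0.02 on 2B, 2.88 on 1C and -0.37 on 2C. Grin2d, a subunit of the NMDA receptor, had -0.18, 0.09, -0.26, -0.22, 2.20 and 0.36 on the same arrays in that order. In both genes 1C stood far above every other array. The fits gave 0.65 ± 0.408 and 0.57 ± 0.241 (adjusted p = 0.339 and 0.192), and without 1C they were -0.16 and 0.11. Without 2C, where 1C is the swapped array left, they were 1.46 and 1.03. Grin3b, a further NMDA receptor subunit, was at -0.17 ± 0.133.

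Chrnb1 resembled Kcnq5 in its pattern, with -0.01 on 1A, -0.02 on 1B, -1.58 on 2A, 0.03 on 2B, 0.79 on 1C and 1.89 on 2C. Across the 40 channel genes, which share their arrays and are not independent, arrays 2A and 2C correlated at r = -0.749, and at 0.065 over the 38 genes without Kcnq5 and Chrnb1, a pair left out after its values were seen; over all rows r was 0.08. The labels do not state whether 2C was already turned, and the cause of this pattern was not tested. P2rx3, the ATP-gated channel of sensory nerves, was below 0 on all 6 arrays, with -0.07 on 1A, -0.07 on 1B, -0.14 on 2A, -0.02 on 2B, -0.28 on 1C and -0.38 on 2C. Both swapped arrays were lower than the other 4, whose mean was -0.08 against -0.33. Its fitted ratio was -0.20 ± 0.0593 (1.15-fold lower, adjusted p = 0.0964). Grina, which shares its symbol's root with the NMDA receptor but encodes a protein of the BAX inhibitor family, was positive on all 6 arrays at 0.27 ± 0.0768 (adjusted p = 0.0955), with 0.27 and 0.26 at its 2 probes.

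Of 17 markers of neural and Schwann cells, 9 were measured. L1cam (-0.45 ± 0.073), Map2 (-1.42 ± 0.205) and Uchl1 (-0.46 ± 0.0922) fell and 0 rose, against 3.09% and 4.03% of all rows. The median of the 9 was -0.015. The part of such cells in the ratios of the nerve-associated channel genes was not tested.

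Aqp1, a water channel of the plasma membrane, came closest to the threshold after Cacng1. It had -0.11 on 1A, -0.10 on 1B, -0.30 on 2A, -0.57 on 2B, -0.45 on 1C and -0.66 on 2C. In the mean of its 2 probes all arrays were below 0, and those of set 1 with transgenic RNA in Cy5 were nearest to it. The mean of its 2 probes was fitted at -0.41 ± 0.0916 (1.33-fold lower, 95% interval -0.64 to -0.19, adjusted p = 0.0534). The probes disagreed in size, and on 1B and 2A in sign. Probe 480467 stood there at -0.27 and -0.79, and probe 656654 at 0.07 and 0.20. Tested singly, probe 480467 fell by 0.73 ± 0.14 (adjusted p = 0.0377), with -1.24 on 2C and -0.20 on 1A as its extremes, while probe 656654 gave -0.10 ± 0.0918 (adjusted p = 0.497). Aqp8, a water channel of epithelia, was at -0.03 ± 0.0905.

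The dye comparison asked which genes gave other ratios when the dyes were exchanged. By limma 0 of 40 channel genes passed and 6 (15%) had an unadjusted p under 0.05, against 0.0147% and 18.2% of all rows. The lowest p belonged to Cacng1, Clcn3 (-0.62 ± 0.187, limma's adjusted p = 0.208) and Chrnb1 (-0.87 ± 0.283, adjusted p = 0.22). The dye coefficient was negative, meaning a lower ratio with transgenic RNA in Cy5, for 29 of 40 channel genes (72.5%) and for 50% of all rows. The 2 orientations gave means of the same sign for 25 of the 40, 13 positive and 12 negative; that share is 62.5% against 56% of all rows. Another 14 were negative in Cy5 and positive in Cy3 (35% against 24.5%), and 1 was the reverse.

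**Figure D3:**
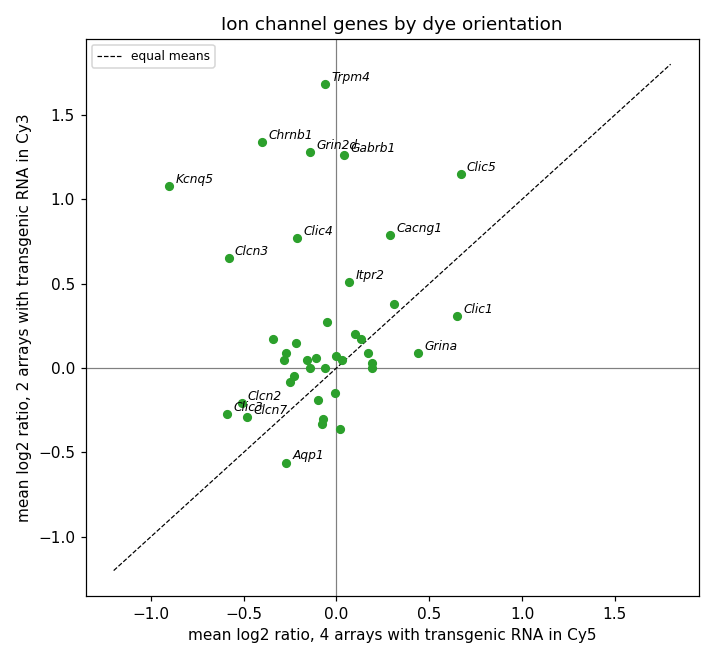
Mean log2 ratio of each ion channel gene over the 4 arrays that had transgenic RNA in Cy5 (x axis) and on the 2 with transgenic RNA in Cy3 (y axis); the dashed line marks equal means. Clic5, Cacng1 and Clic1 lie above 0 on both axes and Aqp1 below 0 on both, while Kcnq5, Chrnb1 and Clcn3 lie below 0 in Cy5 and above 0 in Cy3.

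The set comparison tested for a difference of the transgenic ratio from set 1 to set 2. By limma 0 of 40 channel genes passed, as in 0% of all rows, and 10 (25%) had an unadjusted p under 0.05 against 23.7% of all rows. The lowest p belonged to Clic3 (set 2 minus set 1, 0.65 ± 0.105, adjusted p = 0.0724), Clcn3 (-0.79 ± 0.14, adjusted p = 0.0746) and Kcnc4 (0.37 ± 0.086, adjusted p = 0.0999). Kcnc4 was negative on the 3 arrays of set 1, at -0.23, -0.21 and -0.25, and positive on the 3 of set 2, at 0.10, 0.09 and 0.25 (2A, 2B and 2C).

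How the sets and orientations are modelled changed the number of channel genes called. With the set as a fixed block the estimates stayed and the errors of the genes called were smaller, while those of Chrnb1 (0.319) and Clcn7 (0.471) were larger: 8 of 40 (20%) passed, against 17.2% of all rows, namely Cacng1, Clic1, Clic5 and Grina higher and Aqp1, Clcn2, Clic3 and P2rx3 lower, with adjusted p from 0.012 to 0.046. With the set as a random block Cacng1 alone passed (adjusted p = 0.0424). Limited to the 4 arrays labelled with transgenic RNA in Cy5, where no question of turned columns arises but dye and genotype cannot be told apart, 3 of 40 (7.5%) passed against 15.5% of all rows: Cacng1 (0.29 ± 0.0652), Grina (0.44 ± 0.0871) and Clcn2 (-0.51 ± 0.113), with adjusted p from 0.0346 to 0.0448. Cacng1 was the 1 channel gene called in the first fit and in these 3 others. Without array 2C the dye coefficient fits 1C, the swapped array left, exactly, so a count for that fit is not given. Without 2A 0 passed, against 2.47% of all rows.

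**Figure D4:**
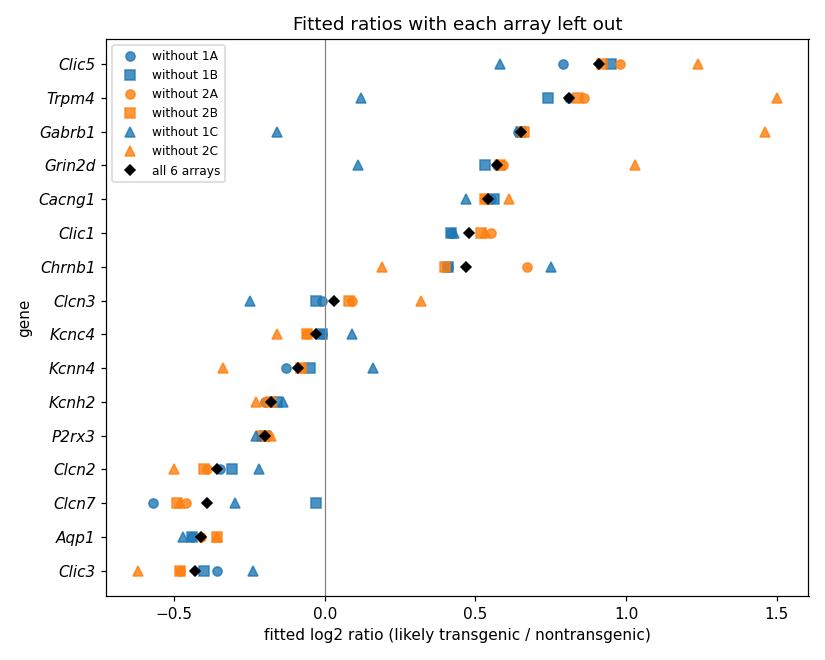
Fitted log2 ratio (x axis) of 16 ion channel genes with all 6 arrays (black) and with each array left out. Trpm4, Gabrb1 and Grin2d move to between -0.16 and 0.12 without 1C and to between 1.03 and 1.5 without 2C, while Cacng1 stays between 0.47 and 0.61.

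Pumps, exchangers and proteins of the calcium store work beside the channels. Of 35 listed genes 18 were measured, and 2 rose and 3 fell (median -0.144), against 4.03% and 3.09% of all rows. Atp2a2, the calcium pump of the reticulum (0.34 ± 0.0661), and Jph2, a junctophilin that ties the reticulum to the plasma membrane (0.49 ± 0.0741, adjusted p = 0.0187), rose. Casq2, the calcium-storage protein calsequestrin 2 (-1.0 ± 0.0935), Fxyd5, a regulator of the sodium pump (-0.88 ± 0.134, adjusted p = 0.0183), and Atp2b4, a calcium pump of the plasma membrane (-0.39 ± 0.0835), fell. The sodium and calcium exchanger Slc8a1 was at 0.35 ± 0.0969 (adjusted p = 0.0888), and of the store-operated channel genes Orai3 was at 0.45 ± 0.132, Orai2 at -0.34 ± 0.17 and their activator Stim1 at -0.10 ± 0.087.

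Of 44 listed genes of other channel families 11 were measured (median 0.013). By limma 0 passed and 5 had an unadjusted p under 0.05, against 7.11% and 27.7% of all rows. Ano6, a calcium-activated scramblase and channel, was at 1.09 ± 0.373 (adjusted p = 0.133), and Tpcn1, a two-pore channel of endosomes, at -0.30 ± 0.0706 (adjusted p = 0.0629). Panx1, a pannexin that releases ATP, was split by orientation. It ran from -0.32 to -0.12 with transgenic RNA in Cy5 and stood at 1.16 on 1C and 0.64 on 2C. Its fitted mean of 0.32 ± 0.0898 stood for neither.

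Markers of other cell types also moved. Of 10 fibroblast markers 6 were measured, with a median of 0.757. Thy1 (2.73 ± 0.207) and Mfap5 (0.81 ± 0.0738) rose and 0 fell past the threshold, against 4.03% and 3.09% of all rows. Dpt was at 1.67 ± 0.458 (limma's adjusted p = 0.0856), with -1.01 on 1B, and Lum at 0.70 ± 0.165 (adjusted p = 0.0622). Pdgfra was at -0.02 ± 0.138. Col1a1, a fibrillar collagen, was at -1.21 ± 0.311 (adjusted p = 0.0752), with -3.28 on 1C. Of 12 epithelial markers 5 were measured, of which Cdh1 rose (0.32 ± 0.0595), and Scgb1a1 and Sftpc, the secretory and alveolar markers, were at 0.07 ± 0.193 and -0.46 ± 0.317. Of 7 endothelial markers 4 were measured (median -0.445) and of 9 leukocyte markers 5 (median -0.166), and in both lists 0 passed by limma, with 1 and 2 genes at an unadjusted p under 0.05. Their part in the ratios of the channel genes was not tested.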

How the data were processed

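Airway smooth muscle RNA was measured on 6 two-colour arrays. The deposited log2 ratios, 1 per probe and array, came already centred near 0; per the labels' protocols, dye-labelled cDNA of both genotypes was hybridised competitively to printed slides. Scanner, background correction, normalization and ratio direction were not given in the sources used here, and depth cannot be given for arrays: their number limits the precision.

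Genes were named from the platform annotation (7540 of 8734 probes with 1 symbol, 14 with several, 1180 with none); all 40 channel symbols matched GRCm38.p6 RefSeq genes. No channel probe lay at the table's lowest value, a ratio of 0.01. Probes of a symbol were averaged per array; rows measured in both orientations and on 4 arrays or more were fitted with limma 3.58.1 (R 4.3.3), lmFit and eBayes, with transgenic and dye coefficients and Benjamini-Hochberg adjustment over 6807 rows. Each swapped array weighs 0.25 in an estimate and each other array 0.125. Over all rows no pair of arrays correlated below 0 (lowest r = 0.029, between 2A and 1C); over the channel genes alone 2A and 2C did (-0.749), as did 1A and 2C (-0.048). A further term gave the set difference. The script was tested on simulated data whose arrays were independent and scattered equally within a row, which these arrays do not. Python 3.11.15 drew the figures.

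Genes named with statistics are those past the threshold, the 6 highest and 6 lowest, the listed airway channels, and the 3 with the lowest p for dye and for set; the other channel genes are given beside them. The members and lists were chosen with earlier results of these data known.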

Additional observations from a re-analysis of the deposited data

Results flagged for a closer look

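For each channel gene the highest and lowest array were compared with the rest, once over the 4 arrays with transgenic RNA in Cy5 and once over all 6 arrays, and a value was singled out where its gap to the nearest other array took up more of the range than Dixon's 95% limit allows. Chance gives about 1 in 20 such values where arrays scatter equally, which these do not. They numbered 4 of 40 channel genes (10%) against 6.71% of all rows with values there, and 8 of 40 (20%) against 15.4%.

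Array 1C held 73.5% of such values over all rows and 6 of the 8 channel genes: Trpm4 at 3.06 (others -0.33 to 0.38), Gabrb1 at 2.88 (-0.37 to 0.08), Grin2d at 2.20 (-0.26 to 0.36), Clic4 at 1.40 (-0.46 to 0.19), Ryr1 at 0.54 (-0.16 to 0.06) and Grin3b at -0.79 (-0.15 to 0.20). The share of channel genes beyond 1 in either direction was 17.5% on 1C, near the 15.4% of all rows on that array. Array 2C held Trpc2 at 0.33 (others -0.38 to -0.15). Array 1B held Clcn7 at -2.62 (others -0.47 to 0.61), where a second probe with values on 1A and 1B alone entered the mean.

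Within the 4 arrays with transgenic RNA in Cy5, array 2A held Kcnq5 at -2.95 (others -0.41 to 0.01) and Chrnb1 at -1.58 (-0.02 to 0.03). The same genes stood at 2.49 and 1.89 on array 2C, the swapped array of that set. Array 1B held Cacna2d1 at -0.52 (others -0.18 to -0.13) and array 2B held Cacnb1 at -0.10 (-0.27 to -0.25). The causes of these values were not tested.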

How the results depend on the processing

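Refits of the 16 genes named by rule kept direction and side of the threshold in 270 cases and changed sign in 30. With the sign kept, they newly passed in 19 and no longer passed in 2. Refits that keep 1 swapped array are among these cases. The number of channel genes called for the transgene was 1. It was 8 with the set as a fixed replicate block (17.2% of all rows passed). Over the 4 arrays that had transgenic RNA in Cy5 (the Cy5 arrays) it was 3 (15.5% of all rows). Equal scaling of arrays gave 2 (8.92% of all rows). Probes tested singly gave 2, where 559 rows had a probe that passed. The number was 0 without a dye term (6.76% of all rows) and 0 with the swapped arrays taken as not turned (0.0147%). Set 1 alone gave 7 and set 2 alone 2, both added after seeing the data. A single-set fit keeps 1 swapped array, which the dye coefficient fits exactly, so the scatter of that array adds nothing to the error. No conclusion on any gene is therefore drawn from the single-set counts. With 1 of the Cy5 arrays left out the number called ran from 0 (without 2A) to 1. The random replicate block, missing floor values, both filters on missing values, robust eBayes and array weights left it at 1. The set comparison gave 4 of 40 channel genes with array weights, where 518 of 6807 rows passed, and 0 otherwise. The dye comparison gave 0 throughout. Rows passing in all fell from 484 to 197 with the random block, to 159 with array weights and to 1 with the arrays not turned. They rose to 1168 with the fixed block and 1058 on the Cy5 arrays. Leaving out 1 of the Cy5 arrays gave 168 to 251. The cause was not tested.

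Signs turned as follows. With the swapped arrays not turned, Aqp1 was at 0.14, P2rx3 at 0.13, Kcnh2 at 0.12, Clic5 at -0.24, Cacng1 at -0.25, Gabrb1 at -0.61, Clcn3 at -0.62, Grin2d at -0.71, Chrnb1 at -0.87 and Trpm4 at -0.87. On the Cy5 arrays Clcn3 was at -0.58, Chrnb1 at -0.40, Grin2d at -0.14 and Trpm4 at -0.06. Clcn3 was at -0.17 without a dye term, -0.10 with equal scaling and -0.06 with array weights, and Kcnc4 was at 0.01 with equal scaling and with array weights. In set 2 alone Clcn3 was at -0.40, Gabrb1 at -0.18, Kcnc4 at 0.17 and Kcnn4 at 0.14. The complete probe of Clcn7 gave 0.22. With 1 array left out, Clcn3 ran from -0.25 to 0.32, Gabrb1 from -0.16 to 1.46, Kcnc4 from -0.16 to 0.09 and Kcnn4 from -0.34 to 0.16.

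The set numbers were not shown to pair arrays, since only 2 sets exist. Arrays of 1 set and orientation correlated over all rows at 0.545 (1A and 1B) and 0.674 (2A and 2B), against 0.365 to 0.424 for Cy5 arrays of different sets.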

Other observations

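Scaffolds and regulators that hold or modify channels were measured for 12 of 38 listed genes, with a median of -0.102. By limma 0 passed (7.11% of all rows did). Cav1, caveolin 1, the coat protein of membrane invaginations that hold channels and receptors, was at -0.54 ± 0.121 (adjusted p = 0.056). Dlg1, a scaffold of the synapse-associated protein family, was at -0.65. Dlg1 had no value on 1A and 1C, and its estimate rested on 2C (-1.43) against 0.42, 0.06 and -0.09 on 1B, 2A and 2B. The dye coefficient fits 2C, its 1 swapped array, exactly, so the size alone is given. Ank3 and Ank2, the ankyrins that anchor channels to the cytoskeleton, were at -0.29 ± 0.172 and -0.17 ± 0.153. Nedd4l, a ubiquitin ligase that removes channels from the membrane, was at 0.13 ± 0.0579. The catalytic subunit of protein kinase A, Prkaca, was at -0.03 ± 0.075.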
